A study of Homo sapiens with 6 samples.

Results

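The genes described are FGA, FGB and FGG, which encode the alpha, beta and gamma chains of fibrinogen, and FGL1, which encodes fibrinogen-like protein 1. These 4 genes, of 60623 in the files, were selected by name, and all 4 passed the filter that left 15664 genes to test. They were chosen by their measured values: the 3 chains were picked because they were jointly lower with HFPO-TA, so their differences between the groups are given as descriptions with no test. The samples are hepatocyte-like cells at day 19 of differentiation, called hepatoblasts by their labels and made from the human embryonic stem cell line H9. Vehicle libraries (DMSO, n = 3) came from cells given 0.1% DMSO. Exposed libraries (HFPO-TA, n = 3) came from cells given hexafluoropropylene oxide trimer acid, which belongs to the perfluoroalkyl ether carboxylic acids, at a labelled dose of 10, whose unit is garbled in the labels and is left out here. Whether the exposed cells also had DMSO is not stated, nor whether replicates came from separate cultures, so the spread between libraries may be technical. All values are in TPM (transcript abundance scaled for gene length and for the library's total), which keep no sequencing depth, so the counting error of a value is unknown.

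Fibrinogen is the clotting protein of plasma and is made mainly by hepatocytes. Its 3 chains are encoded by separate genes and are joined in the endoplasmic reticulum into a hexamer that holds a pair of each, so assembly uses the chains in equal numbers. Thrombin trims the alpha and beta chains to give fibrin, which factor XIII cross-links and plasmin dissolves. The chain genes are textbook acute phase genes: interleukin 6 acting through STAT3 and the C/EBP factors are known to drive them. FGL1 is a secreted hepatocyte protein with a fibrinogen-like domain that does not take part in clotting and is known as a ligand of the immune receptor LAG3.

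The chain genes lie side by side on chromosome 4 in the order FGB, FGA, FGG, within 50012 bases of GENCODE 29 (GRCh38), from 154562956 to 154612967. FGB (154562956 to 154571086) is read from the plus strand. FGA (154583126 to 154590766) and FGG (154604134 to 154612967) are read from the minus strand. Gaps of 12039 and 13367 bases part them, 0 other annotated genes lie within the span, and 0 annotated genes overlap any chain, so no chain shares its bases with an antisense partner in that annotation. The files give 1 value per gene, so the 3, 7 and 12 annotated transcripts of FGA, FGB and FGG are not told apart.

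Because the chains are neighbours that were lower together, their promoters are shown, as RefSeq gives them on GRCh38.p14. Each window holds 250 bases before the start of transcription and 50 from it, 5′ to 3′ on the gene's own strand: chr4:154590693-154590992 (minus) for FGA, chr4:154562730-154563029 (plus) for FGB and chr4:154612607-154612906 (minus) for FGG. Capitals mark matches on either strand to 3 motifs: CTGGGA (the core of the interleukin 6 response element), TTNNGNAA (C/EBP) and AGGTCA (one arm of many nuclear receptor sites). RefSeq matched 3 of the 4 members by symbol, and FGB has a second start 31 bases downstream whose window is not shown.
FGA: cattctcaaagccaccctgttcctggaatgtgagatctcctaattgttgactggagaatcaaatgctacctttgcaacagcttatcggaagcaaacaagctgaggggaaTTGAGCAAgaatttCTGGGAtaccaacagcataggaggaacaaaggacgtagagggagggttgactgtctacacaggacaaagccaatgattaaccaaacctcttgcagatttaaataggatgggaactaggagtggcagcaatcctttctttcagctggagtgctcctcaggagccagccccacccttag
FGB: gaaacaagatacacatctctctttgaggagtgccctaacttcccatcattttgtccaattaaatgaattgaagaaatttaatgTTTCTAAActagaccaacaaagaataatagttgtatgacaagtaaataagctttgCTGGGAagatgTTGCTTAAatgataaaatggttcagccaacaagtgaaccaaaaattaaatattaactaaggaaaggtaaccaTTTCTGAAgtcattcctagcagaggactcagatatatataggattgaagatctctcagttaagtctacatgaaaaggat
FGG: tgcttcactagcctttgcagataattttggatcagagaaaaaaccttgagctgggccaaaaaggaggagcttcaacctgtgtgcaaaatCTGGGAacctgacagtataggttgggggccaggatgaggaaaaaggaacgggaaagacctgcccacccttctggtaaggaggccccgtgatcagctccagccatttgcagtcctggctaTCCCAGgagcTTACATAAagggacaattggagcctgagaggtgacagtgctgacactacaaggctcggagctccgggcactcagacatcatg

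All 3 windows held CTGGGA upstream of the start, and AGGTCA was in none of them. The first of these motifs lay from -127 to -122 in FGA, from -112 to -107 in FGB and from -161 to -156 in FGG, counted from the start as 1, and FGG held another on the opposite strand from -42 to -37. C/EBP matches numbered 1 in FGA, 3 in FGB and 1 in FGG. None of the 9 marked matches overlapped another. Of 35116 RefSeq windows of this length, 33.3% hold CTGGGA, 36.8% TTNNGNAA, 11% both of these and 13.8% AGGTCA. A match is a run of letters and no evidence of binding. The windows differed in base composition, with 47% G and C in FGA, 32.7% in FGB and 52% in FGG, against a median of 58.7% over all windows.

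The 3 chains were among the most abundant transcripts of the vehicle cells and stood at 42.2% to 51.3% of that level with HFPO-TA. Summed, they made up 1.19%, 1.47% and 1.40% of all TPM in DMSO replicates 1, 2 and 3, and 0.690%, 0.626% and 0.589% in the HFPO-TA replicates. Every exposed library lay below every vehicle library. The means were 1.35% ± 0.15 and 0.635% ± 0.051 (SD, n = 3 each).

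FGA encodes the alpha chain, whose ends thrombin removes first and whose long tail is a site of cross-linking. It stood at 2719, 3658 and 3411 TPM in DMSO replicates 1 to 3 and at 1339, 1471 and 1426 TPM with HFPO-TA. The highest exposed library reached 54.1% of the lowest vehicle library, so the groups did not overlap. Group means were 3263 ± 487 and 1412 ± 67.0 TPM (SD, n = 3 each), a log2 fold change of -1.20 (SE 0.11) on the log2(TPM + 1) scale used throughout. FGA ranked from 28 to 47 by level among all genes in the vehicle libraries and from 105 to 119 in the exposed ones.

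FGB, the beta chain, was the most abundant chain in all 6 libraries. It stood at 6105, 7091 and 7015 TPM with DMSO and at 3896, 3372 and 3090 TPM with HFPO-TA. The groups did not overlap, and the exposed library nearest to the vehicle libraries, replicate 1, was at 63.8% of the lowest of them. Means were 6737 ± 549 and 3453 ± 409 TPM (SD, n = 3 each), a log2 fold change of -0.97 (SE 0.09). Its rank by level was 11 to 14 in the vehicle libraries and 27 to 32 in the exposed ones.

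FGG, the gamma chain, which carries the main binding site for the platelet integrin, stood at 3019, 3882 and 3472 TPM with DMSO and at 1636, 1390 and 1347 TPM with HFPO-TA. Again every exposed library was below every vehicle library. Means were 3458 ± 432 and 1458 ± 156 TPM (SD, n = 3 each), a log2 fold change of -1.24 (SE 0.11).

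FGL1 was expressed at a low level, ranking from 10782 to 11565 among all genes in the vehicle libraries. It stood at 4, 4.52 and 4.79 TPM with DMSO and at 3.57, 3.55 and 2.58 TPM with HFPO-TA. The groups did not overlap, but the highest exposed library reached 89.2% of the lowest vehicle library. Means were 4.44 ± 0.40 and 3.23 ± 0.57 TPM (SD, n = 3 each), a log2 fold change of -0.37 (SE 0.15). The added 1 TPM draws log2 fold changes at this level toward 0. With 0.1 TPM added the value was -0.46. FGL1 lies on chromosome 8 from 17864380 to 17910365 (GENCODE 29, minus strand), away from the chain cluster. The antisense gene AC087273.1 and the non-coding gene AC087273.2 overlap it and are listed at 0 in all 6 libraries.

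**Figure D1:**
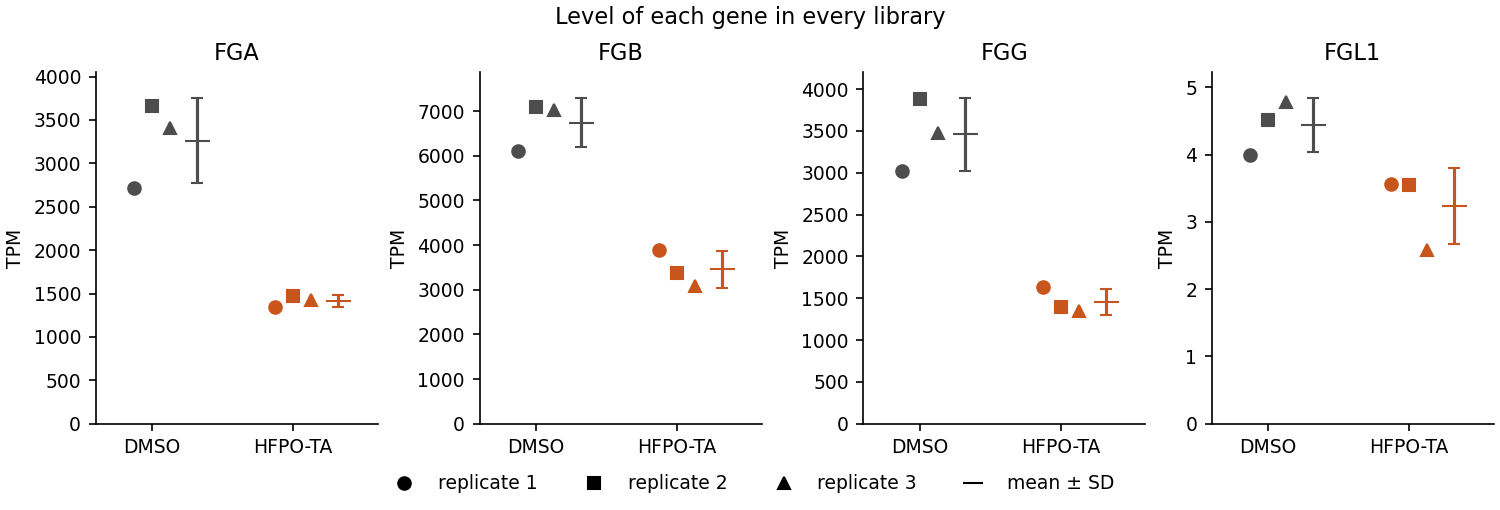
Level in TPM of FGA, FGB, FGG and FGL1 in each library, with circles, squares and triangles for replicates 1, 2 and 3, and the mean ± SD (n = 3) beside each group; every vertical axis starts at 0 and differs between panels. Exposed libraries lie below vehicle libraries in all 4 panels, with the narrowest gap in FGL1 (3.57 against 4 TPM).

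Over all 15664 tested genes, 0.306% were called lower and 0.185% higher with HFPO-TA, where called means a Benjamini-Hochberg adjusted p under 0.05 in limma. The 3 chains were among those called lower and FGL1 was not. Because the chains were picked from this contrast, nothing is read from that count. It was 0 without DMSO replicate 3 or without HFPO-TA replicate 2, 2 without DMSO replicate 2 (FGB lost) or without HFPO-TA replicate 3 (FGA lost), and 1 (FGA) with the replicate number as a block. Libraries of all 4 members were non-overlapping and lower, a pattern that 9.4% of the tested genes showed, while 8.55% were non-overlapping and higher. The median log2 fold change of all tested genes was -0.01, with 51.7% of them below 0 and 48.3% above. At an unadjusted p under 0.05, 5.45% of all tested genes were higher and 6.56% lower.

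Replicate 1 stood apart in both groups. In DMSO it was the lowest library for all 4 members, and in HFPO-TA it was the highest for FGB, FGG and FGL1 and the lowest for FGA. A letter in the column headers, which the labels do not explain, also parts replicate 1 (A) from replicates 2 and 3 (B). Under letter A, with 1 library per group, exposed levels were 49.3%, 63.8%, 54.2% and 89.2% of vehicle levels for FGA, FGB, FGG and FGL1. Under letter B, with 2 libraries per group, they were 41.0%, 45.8%, 37.2% and 65.8%. All 4 members were lower under either letter, and by more under B.

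The proportions of the chains within a library varied less than their levels in the vehicle cells. FGB made up 51.5%, 48.5% and 50.5% of the chain transcripts in DMSO replicates 1 to 3, with FGG at 25.5%, 26.5% and 25% and FGA at 23.0%, 25% and 24.5%. FGA was therefore the scarcest chain in each vehicle library, just below FGG. The coefficient of variation (SD over mean) of the 3 ratios between chains was 4.34% to 7.44% in these libraries, against 8.15% to 14.9% for the chain levels. In the exposed libraries it was 2.84% for FGG to FGB but 15.4% and 16.2% for the ratios to FGA, against 4.74% to 11.8% for the levels.

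With HFPO-TA the share of FGB was higher, at 56.7%, 54.1% and 52.7%, and that of FGG lower, at 23.8%, 22.3% and 23.0%. Neither share overlapped between the groups. The share of FGA was 19.5%, 23.6% and 24.3% and overlapped that of the vehicle libraries. FGA stayed the scarcest chain in exposed replicate 1, and FGG was the scarcest in replicates 2 and 3. The most abundant chain exceeded the scarcest 2.25, 1.94 and 2.06 times with DMSO and 2.91, 2.43 and 2.29 times with HFPO-TA.

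The ratio of FGG to FGB set the groups apart. It was 0.494, 0.547 and 0.495 with DMSO and 0.420, 0.412 and 0.436 with HFPO-TA (means 0.512 ± 0.030 and 0.423 ± 0.012, SD, n = 3 each), a difference in log2 ratio of -0.28. The ratio of FGB to FGA was 2.25, 1.94 and 2.06 against 2.91, 2.29 and 2.17 (2.08 ± 0.15 and 2.46 ± 0.40; log2 difference 0.23), and the groups overlapped. FGG and FGA lay close to each other, except in HFPO-TA replicate 1. Their ratios were 1.11, 1.06 and 1.02 against 1.22, 0.945 and 0.945 (1.06 ± 0.046 and 1.04 ± 0.16; log2 difference -0.05). The sign of that last difference turned without HFPO-TA replicate 2 or replicate 3 (0.02 each), so FGG and FGA cannot be ordered by how far they were lowered. These ratios come from the contrast that chose the chains and are descriptions.

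The ratio of FGL1 to each chain was higher with HFPO-TA. Since the chains were picked for being lower, any gene lowered less than they were has a higher ratio to them. These ratios are therefore descriptions. Per 1000 TPM of FGA there were 1.47, 1.24 and 1.40 TPM of FGL1 with DMSO and 2.67, 2.41 and 1.81 with HFPO-TA (1.37 ± 0.12 and 2.30 ± 0.44, SD, n = 3 each; log2 difference 0.73). The log2 difference was 0.50 against FGB and 0.78 against FGG, and the groups did not overlap in any of the 3 ratios. At about 4 TPM with unknown depth, the precision of the FGL1 values cannot be given beyond the spread of the libraries.

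**Figure D2:**
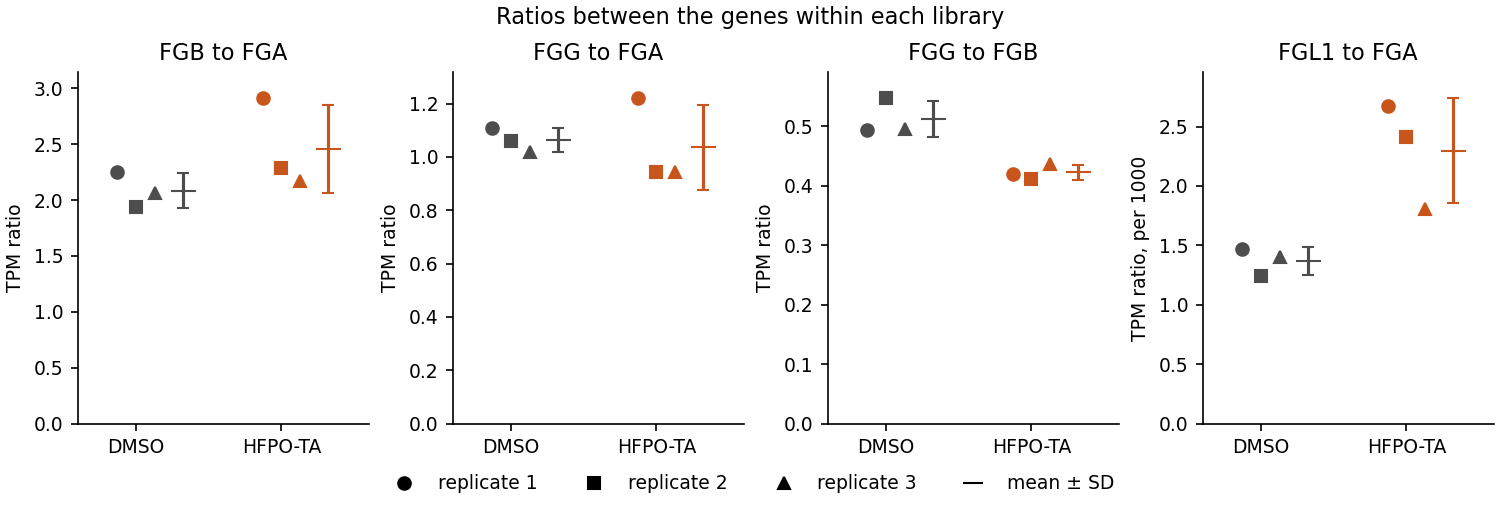
Ratios of TPM values within each library for FGB to FGA, FGG to FGA, FGG to FGB and FGL1 to FGA (the last per 1000), with a symbol per replicate and the mean ± SD (n = 3) beside each group; axes start at 0. The groups are apart for FGG to FGB (0.494 to 0.547 against 0.412 to 0.436) and for FGL1 to FGA, and HFPO-TA replicate 1 has the highest ratio to FGA in its group for each partner gene.

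Relative to 15 other secreted hepatocyte genes, the summed chains were lower in every exposed library than in every vehicle library for 11, and the groups overlapped for 4 (ALB, AHSG, HP and ORM1). The chains were picked for being lower, so separation against a gene that changed little was set by that choice. The share over all tested genes is not given, and nothing is read from the count. Per 100 TPM of AFP, the fetal serum protein that dominated these libraries, the summed chains stood at 16.5, 18.5 and 17.6 TPM with DMSO and at 10.9, 9.33 and 9.01 TPM with HFPO-TA. Per 100 TPM of APOA1, the main protein of high density lipoprotein, they stood at 62.2, 69.0 and 64.6 against 34.9, 27.9 and 26.4. Per 100 TPM of SERPINA1 (alpha-1 antitrypsin) they stood at 248, 248 and 234 against 167, 123 and 115. Groups were apart for these 3 references and for the thyroid hormone carrier TTR (means of 152 ± 13 and 86.5 ± 12 per 100 TPM, SD, n = 3 each). Against ALB, the albumin gene, they overlapped: 117, 114 and 128 TPM of chains per TPM of ALB with DMSO and 127, 93.9 and 79.8 with HFPO-TA. For AHSG (fetuin A, a plasma glycoprotein) there were 8.96, 7.16 and 7.19 TPM of chains per TPM against 8.21, 5.38 and 5.16. For the hemoglobin binder HP (haptoglobin) there were 159, 222 and 184 against 296, 123 and 129, with replicate 1 the highest exposed library for each of these 3 genes.

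Of 15 other secreted hepatocyte genes, all tested, limma called 0 in either direction, while at an unadjusted p under 0.05 there were 8 lower and 1 higher, against 6.56% and 5.45% of all tested genes. Their median log2 fold change was -0.23 and 11 of the 15 lay below 0 (51.7% of all tested genes did), with a range from -0.91 to 0.64. For 8 of them every exposed library was below every vehicle library, as for 9.4% of all tested genes. The log2 fold change of AFP was -0.23 (SE 0.05, adjusted p = 0.0867). TTR stood at 8820 ± 242 and 7349 ± 456 TPM, and its log2 fold change was -0.26 (SE 0.05, adjusted p = 0.0878). APOA1 stood at 20579 ± 1354 and 21420 ± 1484 TPM, and its log2 fold change was 0.06 (SE 0.07, adjusted p = 0.799).

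Genes of factors and signalling steps linked to fibrinogen transcription mostly lay above 0, some of them by little. The list also holds the feedback gene SOCS3, so a higher value need not mean more drive on the chains. Of its 15 genes, all tested, limma called 1 higher and 0 lower, and the median log2 fold change was 0.07. There were 11 above 0 (48.3% of all tested genes were) and 4 below, and the 11 include IL6ST (0.02) and JAK1 (0.05). At an unadjusted p under 0.05, 5 were higher and 2 lower, against 5.45% and 6.56% of all tested genes. The called gene was CREB3L3, a liver factor anchored in the endoplasmic reticulum that acts on acute phase and lipid genes. It rose from 60.9, 60.3 and 59.2 TPM to 82.1, 88.4 and 90.2 TPM (log2 fold change 0.52, SE 0.06, adjusted p = 0.0272). That call ended in 5 of the 6 fits with a library left out, all but the one without HFPO-TA replicate 1, with an adjusted p up to 0.189. It also ended with the replicate block (adjusted p = 0.061), median-of-ratios scaling (0.0609), no filter on low values (0.105) and no trended and robust variance (0.104), so that 6 of 15 alternatives kept it.

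The C/EBP genes lay above 0 without passing the test. CEBPA stood at 67.4 ± 1.30 and 79.0 ± 9.83 TPM (log2 fold change 0.22, SE 0.09, adjusted p = 0.4), and CEBPD at 62.6 ± 3.59 and 80.3 ± 15.4 TPM (0.34, SE 0.13, adjusted p = 0.334). CEBPB had a log2 fold change of 0.79 (SE 0.23, adjusted p = 0.24). Of the interleukin 6 pathway, the shared receptor subunit IL6ST stood at 58.5 ± 4.44 and 59.4 ± 5.77 TPM and STAT3 at 47.4 ± 5.15 and 47.0 ± 3.04 TPM. The kinase JAK2 stood at 4.22, 4.66 and 4.04 TPM against 4.91, 5.05 and 4.70 TPM, with no overlap (log2 fold change 0.15, SE 0.12, adjusted p = 0.701). SOCS3, a feedback gene that STAT3 induces, stood at 9.84, 5.54 and 7.13 TPM against 16.0, 6.66 and 7.93 TPM, with replicate 1 highest in both groups. CEBPB, IL6ST, STAT3, JAK2 and SOCS3 were chosen for mention after their values were seen.

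Genes that serve the folding and export of secreted proteins showed no called change. Of 14 genes, all tested, limma called 0, with 3 higher and 0 lower before adjustment (p under 0.05; 5.45% and 6.56% of all tested genes) and a median log2 fold change of 0.05. The range was narrow, from -0.11 to 0.31. P4HB, a protein disulfide isomerase, stood at 957 ± 15.5 and 958 ± 43.0 TPM (log2 fold change 0.00, SE 0.05, adjusted p = 0.998). Levels of the chaperone HSP90B1 were 553 ± 59.1 and 601 ± 71.9 TPM (0.12, SE 0.11, adjusted p = 0.735). CALR (calreticulin) stood at 553 ± 20.9 and 539 ± 8.86 TPM (-0.04, SE 0.05, adjusted p = 0.842).

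Genes whose products act on fibrinogen or fibrin were not called either. Of 12 genes, 11 passed the filter, and limma called 0, with 1 in each direction before adjustment (5.45% of all tested genes were higher and 6.56% lower) and a median log2 fold change of 0.05. PLG, the precursor of plasmin, stood at 276 ± 21.4 and 334 ± 16.8 TPM (0.28, SE 0.07, adjusted p = 0.17). SERPINF2, the plasmin inhibitor, stood at 161 ± 4.70 and 152 ± 7.70 TPM (-0.08, SE 0.06, adjusted p = 0.675). F13B, the carrier subunit of factor XIII, lay lowest in the list at 3.13, 4.78 and 5.71 TPM against 2.02, 2.20 and 1.76 TPM (-0.86, SE 0.20, adjusted p = 0.127), and was named after its values were seen. Its exposed mean was 43.9% of its vehicle mean, within the range of the chains (42.2% to 51.3%). The added 1 TPM makes its log2 fold change smaller than theirs would be at that percentage.

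FGL1 belongs to a wider family with a fibrinogen-like domain. Of 20 other family members, 10 passed the filter. limma called 0 of them, with 1 higher and 2 lower before adjustment (5.45% and 6.56% of all tested genes), and the median log2 fold change was -0.20. TNC (tenascin C, a matrix protein) stood at 41.6, 29 and 35.0 TPM against 30.0, 13.9 and 15.3 TPM (log2 fold change -0.87, SE 0.29, adjusted p = 0.298). ANGPTL4, an inhibitor of lipoprotein lipase, stood at 17.7 ± 0.11 and 18.4 ± 2.18 TPM (0.05, SE 0.10, adjusted p = 0.902). ANGPT1, named after its values were seen, stood at 1.46 ± 0.17 and 0.42 ± 0.13 TPM. Its exposed mean was 28.8% of its vehicle mean, a lower percentage than for any chain. With 1 TPM added its log2 fold change was only -0.79 (SE 0.18, adjusted p = 0.117). Of the 10 tested genes 8 lay below 0 and 2 above.

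**Figure D3:**
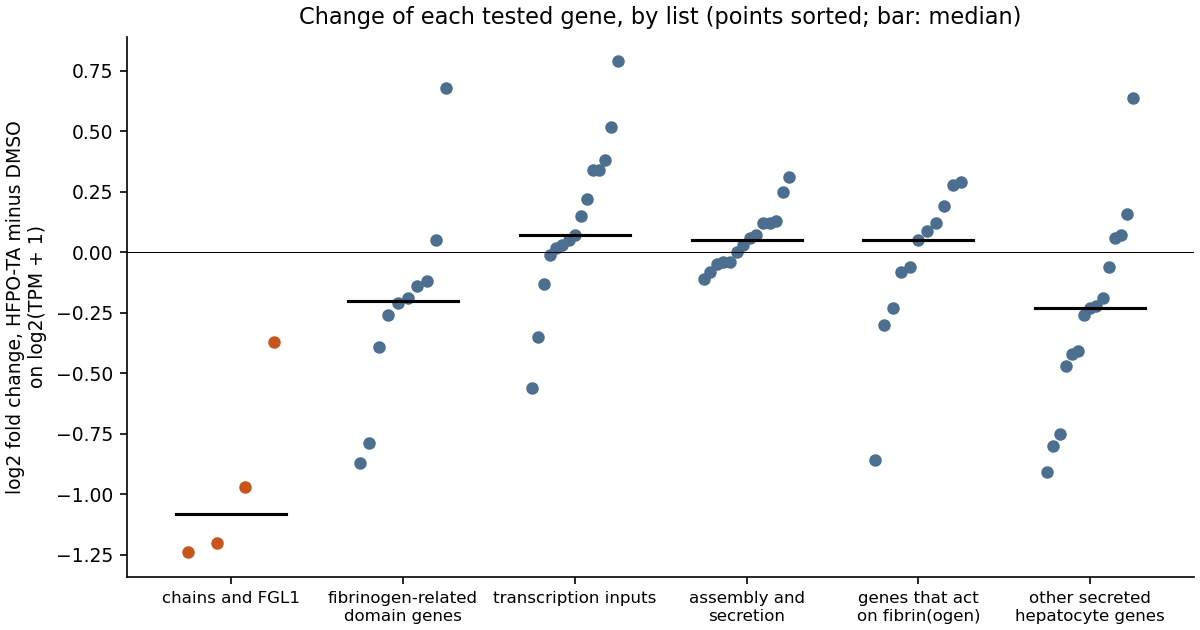
Log2 fold change, HFPO-TA minus DMSO on log2(TPM + 1), of each tested gene in the chains and FGL1 and in 5 gene lists; each point is 1 gene, points are sorted within a list, and the bar is the list's median. The 3 chains lie between -1.24 and -0.97 and the other lists have medians between -0.23 and 0.07. The added 1 TPM draws genes at a few TPM toward 0, so their points understate their change in TPM beside the chains.

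Of the 4 protein-coding genes nearest to the cluster, only PLRG1 passed the filter, and it was not called. PLRG1, a splicing factor 12521 bases beyond the FGB end of the cluster, stood at 22.5, 22.1 and 20.1 TPM against 21.4, 24.2 and 23.9 TPM (log2 fold change 0.10, SE 0.09, adjusted p = 0.742). LRAT, which esterifies retinol and lies 13978 bases beyond FGG, was below the filter at 1.12 ± 0.62 and 0.98 ± 0.26 TPM. DCHS2 and RBM46, the next genes outward, were at 0.26 TPM or less in every library. Beside FGL1, the nearest protein-coding genes MTUS1 and PCM1 stood at 12.3 ± 1.02 and 11.9 ± 2.62 TPM and at 19.0 ± 2.37 and 21.0 ± 1.55 TPM (adjusted p = 0.929 and 0.69). The next genes outward, PDGFRL and ASAH1, had adjusted p = 0.818 and 0.285.

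Hepatocyte and hepatoblast markers were present in every library. The 6 markers (ALB, AFP, TTR, APOA1, SERPINA1 and HNF4A) summed to 104278 to 115408 TPM with DMSO and to 93894 to 101942 TPM with HFPO-TA, so this sum, mostly AFP, was also lower in the exposed libraries; its part in the chains' difference was not tested. ALB itself was low beside the chains, at 101, 129 and 109 TPM against 54.1, 66.4 and 73.5 TPM. In bulk samples, fewer cells of a type and less RNA per cell cannot be told apart. Platelet and megakaryocyte markers, the other cells that carry fibrinogen, were near 0: the 6 summed to at most 2.55 TPM, PF4 was at 0 in every library and PPBP reached 0.07 TPM in 1.

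The summed stromal, endothelial and biliary markers were each highest in replicate 1 of each group. The 6 stromal and stellate markers summed to 1840, 1177 and 1363 TPM with DMSO and to 2096, 995 and 960 TPM with HFPO-TA, with none of them at 0. The 5 endothelial markers summed to 54.1, 43.9 and 44.7 TPM against 57.9, 38.5 and 38.3 TPM. KDR made up most of that sum (39.4 and 46.7 TPM in replicate 1 of DMSO and HFPO-TA), while PECAM1 and TEK were lowest in replicate 1 of both groups. The 4 biliary markers summed to 508 to 679 TPM across the libraries (KRT7 was highest in DMSO replicate 3 and HFPO-TA replicate 2). The 4 markers of lung or gut epithelium summed to 252 to 279 TPM (VIL1 and CDX2, with the lung genes SFTPB and SFTPC below 1 TPM). The 4 pluripotency markers summed to 6.05 to 9.11 TPM. Most of that was LIN28A (5.58 to 7.33 TPM), with NANOG and SOX2 below 1 TPM and POU5F1 at most 1.75 TPM. The part of these marker lists in the position of replicate 1 was not tested. These sums overlapped between the groups except for the lung and gut list.

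Among 7931 tested genes with a mean of at least 10 TPM, the 8 closest in pattern to the chains were sought. Each gene's log2 values were centred on their mean over the 6 libraries, and likeness was the root mean square distance to the mean of the 3 chains. The chains themselves lay at 0.07 (FGG), 0.094 (FGA) and 0.103 (FGB), FGL1 at 0.397 and the median gene at 0.598. Each chain is part of the mean it is measured against, so its distance is small in part by construction. In order of distance the closest were LINC02732 (0.11), PRSS23 (0.117), NRGN (0.146), UGT3A1 (0.155), NANOGP1 (0.2), ODC1 (0.203), ZNF826P (0.21) and GNRH2 (0.21). With 6 libraries in 2 groups, this likeness is mostly a shared difference between the groups, and it is a description.

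PRSS23, a serine protease gene, stood at 64.4, 86.6 and 80.5 TPM with DMSO and at 44.7, 38.9 and 37.1 TPM with HFPO-TA, following the chains also in the low position of DMSO replicate 1. ODC1, the rate-limiting enzyme of polyamine synthesis, stood at 463, 663 and 553 TPM against 290.1, 325.5 and 330.1 TPM. UGT3A1, a glycosyltransferase gene, stood at 31.7, 47.1 and 42.3 TPM against 24.7, 17.2 and 17.0 TPM. None of the 8 is on chromosome 4. PRSS23, NRGN, NANOGP1 and ZNF826P overlap genes on the opposite strand in GENCODE 29, so without knowledge of strand their values are uncertain. PRSS23 and ZNF826P also overlap non-coding genes on their own strand, and ODC1 overlaps a small nucleolar RNA gene on its own strand. Knowledge of strand would not part those.

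**Figure D4:**
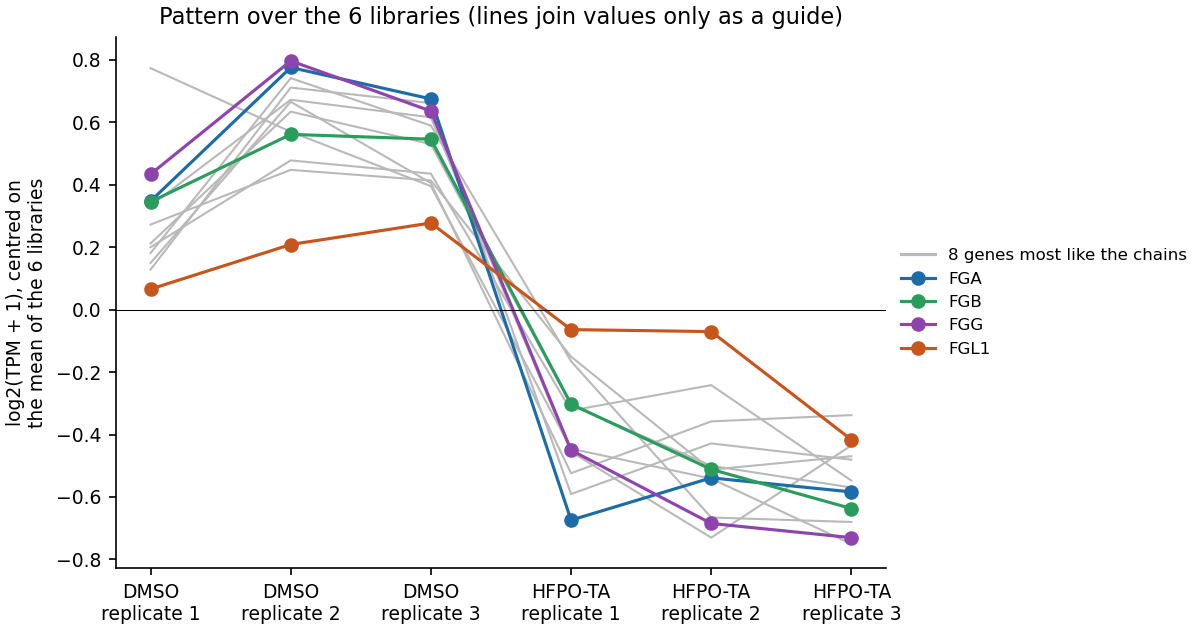
Values of log2(TPM + 1) centred on each gene's mean over the 6 libraries, for FGA, FGB, FGG, FGL1 and, in grey, the 8 genes closest to the mean of the chains; lines join libraries only as a guide. The chains lie above 0 in the 3 vehicle libraries and below 0 in the 3 exposed ones, and FGL1 follows with smaller deviations (distance 0.397).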

How the data were processed

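RNA sequencing libraries of 3 vehicle and 3 exposed samples were grouped by their titles. The authors deposited 1 value per gene for 60623 genes; the headers say FPKM, but the 6 columns sum to 995690 to 996186, so they were treated as TPM values made by the authors. Per the submitters' processing notes the tools were HISAT, Bowtie2 and RSEM on GRCh38.p13, without roles or versions; annotation and strand setting: not given in the sources used here. Depth is unknown.

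Values were transformed to log2(TPM + 1). Genes with at least 1 TPM in 3 libraries were fitted with limma 3.58.1 (R 4.3.3), treatment as the only term, with trended and robust variance, and p-values (2-sided) were adjusted over all 15664 genes by Benjamini-Hochberg. The fit was tested on simulated data. Standard errors come from this fit. Ratios use untransformed TPM. Positions are from GENCODE 29, in which 58516 gene identifiers were found, and promoters from RefSeq. Figures used matplotlib 3.10.9.

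The members, lists and tests were chosen with earlier results of these data known. Named by rule were all members, the called genes and the 3 most abundant of each list, the 8 genes most like the chains and the 2 nearest protein-coding genes on each side of each locus. A few genes that this rule names are not reported here. Alternatives were the pseudocount, filter, scaling, variance estimate, replicate block and each library left out. The header letter as a term and replicates 2 and 3 alone were added after the data were seen.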

Additional observations from a re-analysis of the deposited data

How the results depend on the processing

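FGA, FGB, FGG and FGL1 were lower with HFPO-TA in every alternative run. Because the groups did not overlap for any member, leaving out a library could not turn the sign. The filter, variance and block settings leave the difference of group means as it was. Nothing is therefore read from the shared direction. Log2 fold changes ran from -1.32 to -1.11 for FGA, -1.13 to -0.89 for FGB, -1.42 to -1.16 for FGG and -0.49 to -0.25 for FGL1. FGB (-1.13) and FGG (-1.42) moved by more than the spread of the replicates with replicates 2 and 3 alone. With 1 library left out the log2 differences ran from 0.10 to 0.31 for the ratio of FGB to FGA, -0.30 to -0.23 for FGG to FGB, 0.61 to 0.89 for FGL1 to FGA and -0.17 to 0.02 for FGG to FGA, the only one to turn. FGL1 has no value with a minimum of 5 TPM, which it does not reach.

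The number of called genes, 77 of which 37.7% were higher, depended on the settings. It was 39 with upper-quartile scaling, 30 with median-of-ratios scaling, 10 without a filter (60.0% higher), 130 with a minimum of 5 TPM, 11 without a trended and robust variance (72.7% higher), 207 with the header letter as a term, 222 with replicates 2 and 3 alone, and 6 to 291 with 1 library left out (25.5% to 100% higher). Dropping DMSO replicate 1, 2 or 3 gave 47, 14 or 7 called genes. Dropping HFPO-TA replicate 1, 2 or 3 gave 291, 6 or 10. The cause was not tested. Without the trended and robust variance none of the chains was called, and without a filter FGB was not.

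Same-numbered libraries share only a number in the labels. Their deviations from the group means correlated at 0.184, 0.123 and 0.028, and 5 of the 6 libraries matched their own number best. These matches are not independent, because the deviations within a group sum to 0. DMSO replicate 3 matched HFPO-TA replicate 3 (0.028) hardly better than HFPO-TA replicate 2 (0.014). With the replicate block 30 genes were called, 20 of them shared with the 77. The log2 fold changes of the members and the differences in ratio were as without the block (FGG to FGB -0.28, FGB to FGA 0.23, FGL1 to FGA 0.73). Each number holds 1 library of each group, so the block could not change these differences and nothing is read from their sameness.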

Other observations

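Among the 146 tested genes with a mean of at least 1000 TPM, a limit chosen after the data were seen, FGG, FGA and FGB had the 3 lowest log2 fold changes (-1.24, -1.20 and -0.97). The fourth was AHSG (fetuin A, a secreted hepatocyte glycoprotein) at -0.75, and the median of these genes was 0.04. Among all 15664 tested genes the chains were at places 35, 41 and 73 from the lowest, and FGL1 at place 1059. This is the contrast the chains were picked from, so the order is a description.

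GNRH2, the gene of a gonadotropin-releasing peptide known mainly from brain, was listed at 1383, 1676 and 1628 TPM with DMSO and at 962, 1018 and 823 TPM with HFPO-TA. No gene overlaps it in GENCODE 29.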
